A study of Triticum aestivum with 3 samples.

Results

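The leaves of wheat (Triticum aestivum) seedlings were treated for 2 days with DTT, with DTT+TUDCA, or left as the control, and small RNA was sequenced. DTT (dithiothreitol) is a reducing agent that disturbs the folding of proteins in the endoplasmic reticulum, and TUDCA (tauroursodeoxycholic acid) is a chemical chaperone that eases such folding stress. The DTT leaves were compared with the control leaves for the miRNAs that carry wheat (tae-) or Aegilops (ata-) names. These are the names registered from wheat itself and from Aegilops tauschii, the wild grass that gave wheat its D chromosomes. The members were chosen by name: 261 of the 1896 distinct sequences in the table carry such a name, and 140 had at least 20 normalized reads summed over the 2 DTT and 2 control pools. Of the 140, 89 have a tae- name and 51 an ata- name. Among them, 5 members of miR5048 share their values with another member, so 137 sets of values are distinct. Of the 121 left out, 27 were listed at 0 in all 4 pools. Just inside the limit stood tae-MIR1122a-p5 with a sum of 20.4 normalized reads, and just outside it tae-miR9670-3p with 19.5.

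Each treatment is 1 sample in the labels, read as 2 RNA pools that were mixed from biological replicates. The sources used here do not say which plants went into which pool, so every value describes these libraries and no p-value goes with it. The levels are normalized reads as deposited. The steps between the values gave about 611784 and 752518 reads for DTT pools 1 and 2, and 420488 and 330652 for control pools 1 and 2. With DTT, 1 read was thus worth 1.04 (pool 1) and 0.720 (pool 2) normalized reads, against 1.57 and 1.70 in control. Between 2 and 7 values in each pool equalled a single read, against 147 to 214 that equalled 2 reads, so an entry listed at 0 may have held a read. No marker of cell type applies to a small RNA table, and fewer cells of a type cannot be told apart from less RNA per cell.

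Plant miRNAs are cut by a Dicer-like enzyme from a hairpin precursor, which leaves a pair of short strands, 1 from each arm. One strand, usually of 21 bases, is loaded into an ARGONAUTE protein and guides the cleavage of messenger RNAs that match it almost fully. Old families shared by most land plants regulate transcription factors and nutrient balance, and young families are found in few species. A name with MIR and p5 or p3 is a sequence from the arm of a registered precursor for which no mature form is registered. The additions L, R and ss mark a changed left end, right end or base.

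The sequences below are 13 of the 15 members that were at least 2-fold apart with pools that do not overlap, shown because the results turn on them. They run 5′ to 3′ as deposited, with T for U. The capitals mark bases 2 to 8, the seed.
ata-miR398f-5p_L+1R-1: aGGGTCGAactgagaacacat
tae-miR398: tGTGTTCTcaggtcgcccccg
ata-miR528-5p: tGGAAGGGgcatgcagaggag
tae-MIR397-p5: tTGAGTGCagcgttgatgaac
tae-miR397-5p: tCACCGGCgctgcacacaatg
tae-MIR9653a-p5: gCCAAGGTctcgtgaggttcgc
tae-miR9653b_R+1: tGGCCAAGgtctcttgaggctt
ata-miR171b-3p_L+4_1ss16TC: gATCTGATtgagccgcgccaatatc
tae-miR5200: tGTAGATActccctaaggctt
ata-miR172c-5p_R-3: gTGGCATCatcaagattcac
ata-miR169h-3p_L-1: cAAGTTGTtcttggctagc
ata-miR169i-3p_1ss8TG: gGCAGTCGccttggctagc
ata-miR5168-5p: gGGTTGTTgtctggttcaagg
These 13 sequences have 13 different seeds. Of the 140 members, 33 share a seed with another member, in 13 groups, and no member of those 13 groups was 2-fold apart.

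Over the summed pools, 5 of the 6 copper and laccase members were at least 2-fold higher with DTT. Of the 8 members of miR169, which targets NF-YA transcription factors, 2 were at least 2-fold lower. Of the 140 members, 17 (12.1%) had a DTT sum at least 2-fold above the control sum and 7 (5%) one at least 2-fold below it. The minimum applied to the sum of both treatments, so a member could pass it through 1 treatment alone: the control sum was under 20 for 12 of the 17, and the DTT sum was under 20 for 6 of the 7. Over all 140 members these numbers were 32 and 22. Over all 958 sequences with the same minimum, of any name, the shares were 16.8% higher and 10.2% lower, and over the 818 with other names they were 17.6% and 11.1%, so neither share of the wheat and Aegilops entries was above that of the rest. The median log2 ratio was 0.03 for the 140 and 0.08 for the 958. Both DTT pools lay above both control pools for 9 of the 17 and below them for 6 of the 7, which is 6.43% and 4.29% of the members, against 13.3% and 8.14% of all sequences and 14.4% and 8.8% of those with other names. At any size of ratio, both DTT pools lay above both control pools for 12 members (8.57%) and below them for 15 (10.7%). The shares were 22.8% and 18.4% of all sequences, and 25.2% and 19.7% of those with other names. The balance between higher and lower changed with the pools used. With DTT pool 2 left out, 7 of the 124 members that then reached the minimum were higher and 49 lower. Leaving out DTT pool 1 gave 37 higher and 6 lower of 151 members. Leaving out control pool 1 gave 12 higher and 31 lower of 144, and leaving out control pool 2 gave 44 higher and 5 lower of 131. The shares over the sequences with other names in these settings are given at the end.

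**Figure D1:**
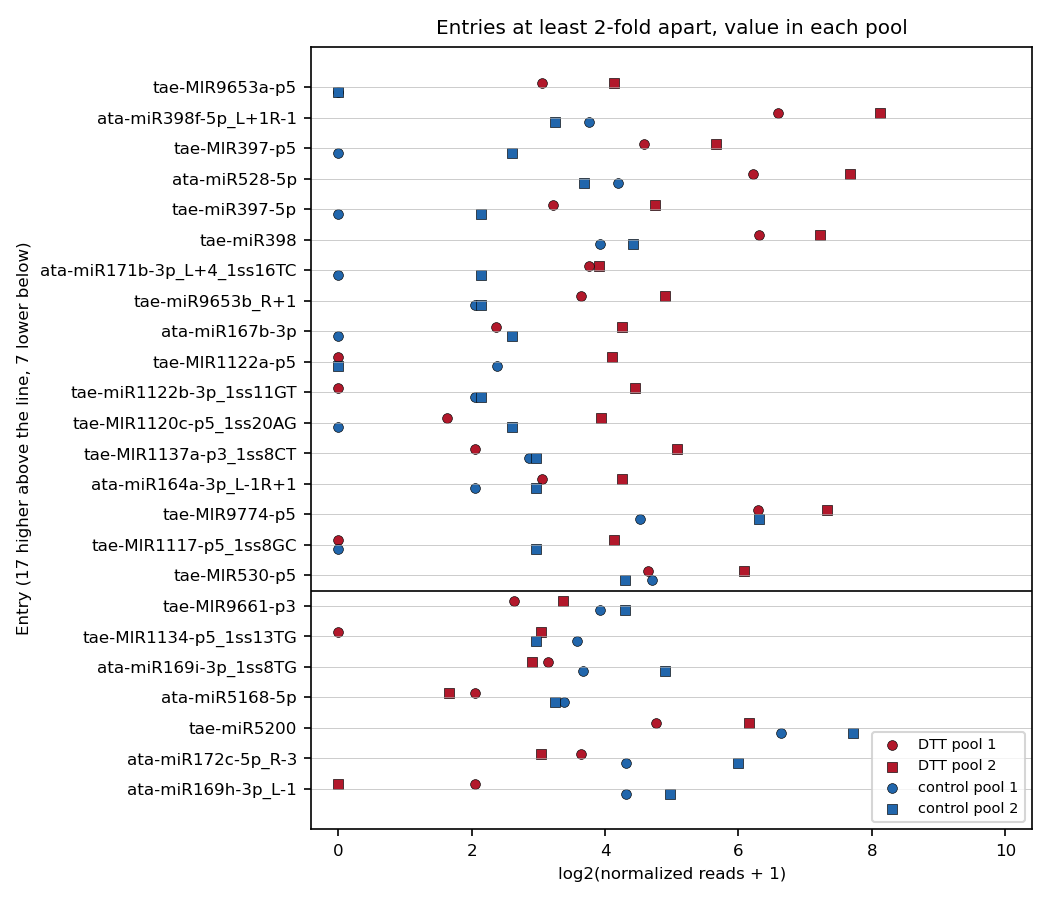
Values of the 24 entries at least 2-fold apart, as log2 of normalized reads plus 1, in each DTT pool (red) and control pool (blue), with the 17 higher entries above the line and the 7 lower ones below it. In 15 of the 24 the red points do not overlap the blue ones.

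More members were 2-fold apart between the pools of 1 treatment than between the summed treatments. Between DTT pool 2 and DTT pool 1, 78 of 118 members with at least 20 normalized reads in that pair were at least 2-fold higher in pool 2 and 0 were lower. Between control pool 2 and control pool 1, 51 of 108 were higher and 1 was lower. The same difference ran through DTT and control: 62 of the 140 members were at least 2-fold higher in pool 2 than in pool 1 in both. Pools of the same number lay closer, with 6 higher and 5 lower of 94 members for DTT pool 1 against control pool 1, and 16 higher and 6 lower of 129 for DTT pool 2 against control pool 2. Pools of unlike number did not: of 110 members, 4 were higher and 61 lower in DTT pool 1 than in control pool 2, and of 119 members, 70 were higher and 1 lower in DTT pool 2 than in control pool 1. Sequences with other names showed less difference between the pools of 1 treatment, with 88 higher and 69 lower of 580 for DTT pool 2 against DTT pool 1. For control pool 2 against control pool 1, 85 were higher and 49 lower of 575. Of those with other names, 23.6% were 2-fold apart between the pools numbered 1 and 36.6% between the pools numbered 2. The shares were 39.2% for DTT pool 1 against control pool 2 and 35.9% for DTT pool 2 against control pool 1. For them, the pools numbered 2 thus lay no closer than pools of unlike number. In DTT+TUDCA the order was reversed, with a median over the 140 members of 290 normalized reads in pool 1 and 22.9 in pool 2. The order by pool number thus did not hold in every treatment. No source used here says that a pool number marks a shared batch.

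**Figure D2:**
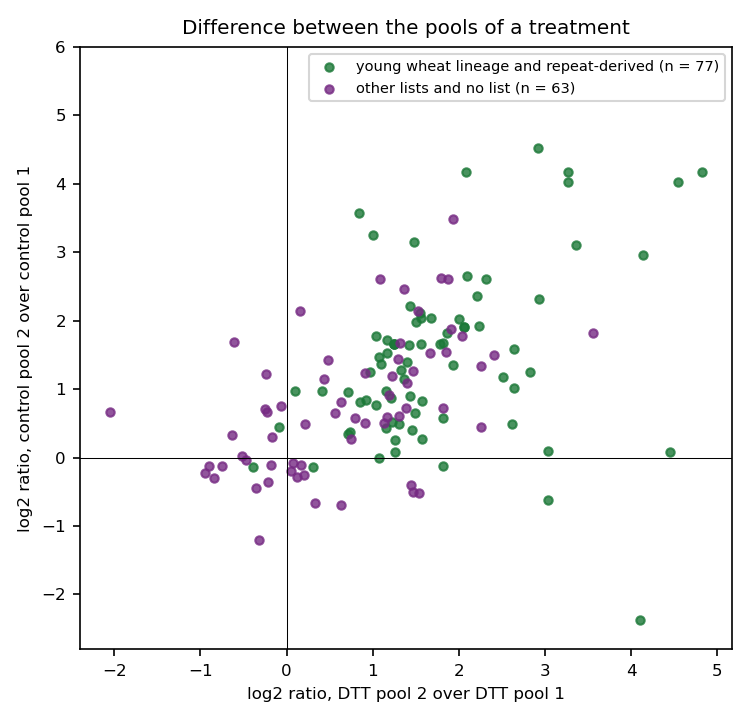
Log2 ratio of pool 2 to pool 1 in DTT (horizontal) and in control (vertical) for each of the 140 members, split into the young wheat and repeat-derived families (green, n = 77) and the rest (purple, n = 63). Most green points lie at the upper right, since 75 of the 77 were higher in DTT pool 2 and 71 in control pool 2.

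The young wheat-lineage and repeat-derived families showed that difference most widely. Of their 77 members, 75 had a higher value in DTT pool 2 than in DTT pool 1, and 71 had a higher value in control pool 2 than in control pool 1. Together they took 1.71% of the normalized reads in DTT pool 1 and 6.62% in DTT pool 2, against 1.61% in control pool 1 and 5.13% in control pool 2. In DTT+TUDCA the order was reversed, with 14.5% in pool 1 and 1.14% in pool 2. Among the members past the limit, 8 higher and 2 lower ones were also at least 2-fold apart in each of the 4 single-pool ratios of DTT to control, and these 10 are among the sequences printed above.

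**Figure D3:**
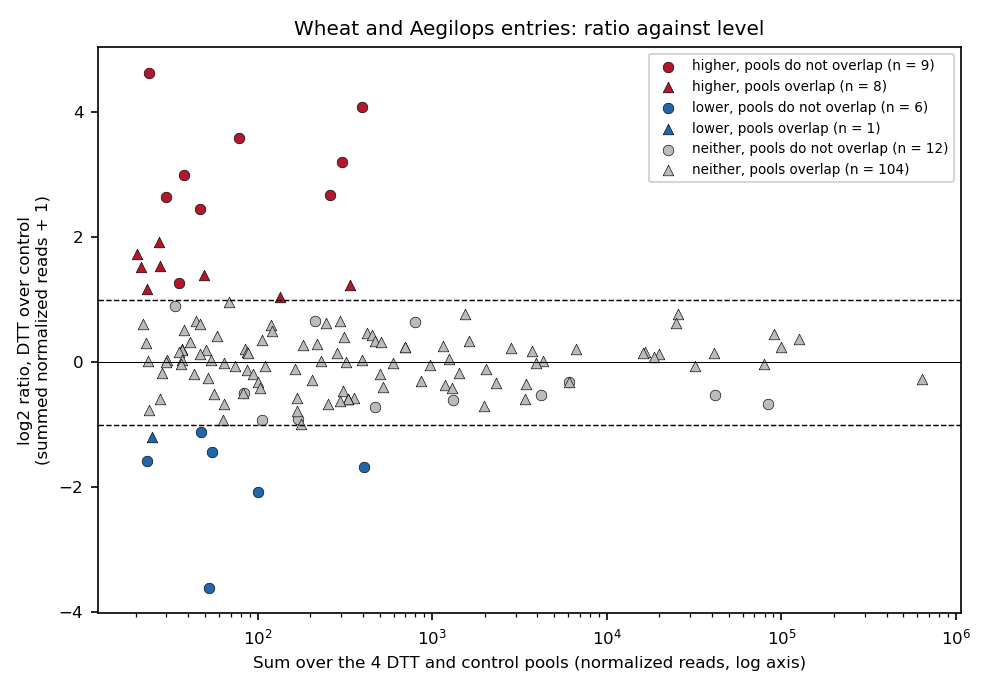
Log2 ratio of DTT over control (vertical) against the sum over the 4 pools (horizontal, log axis) for the 140 members, with circles for pools that do not overlap and triangles for pools that do, and dashed lines at 2-fold. All 24 coloured points lie below a sum of 1000 normalized reads.

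The members past the limit were of low or middling level. No member with a sum of at least 1000 normalized reads was 2-fold apart, of 36, although these took between 97.8% and 99.3% of the members' normalized reads in each pool. With a sum of 100 to 1000, 5 of 50 were higher and 2 lower. Under 100, 12 of 54 were higher and 5 lower. In total 11 of the 17 higher and 3 of the 7 lower members had a sum under 50, where a few reads decide the ratio.

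**Figure D4:**
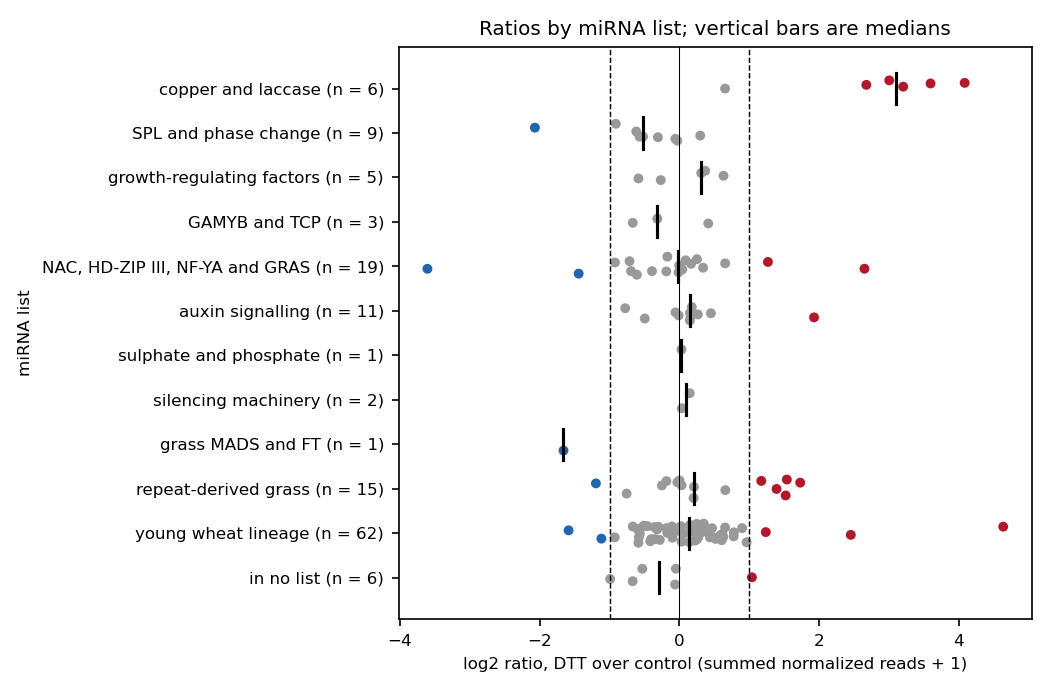
Log2 ratio of DTT over control for each of the 140 members by miRNA list, with red for at least 2-fold higher, blue for at least 2-fold lower and black bars for medians. The copper and laccase list has its median at 3.10, while the medians of the other lists with 3 or more members lie between -0.52 and 0.31.

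Among the lists, copper and laccase miRNAs had the highest median log2 ratio. In plants, miR398 targets copper/zinc superoxide dismutase, miR397 laccases, miR408 plantacyanins and miR528, a monocot family, transcripts of copper and redox proteins. Of the 6 members of this list, 5 were at least 2-fold higher and 0 lower. All 6 had both DTT pools above both control pools. That held for 8.57% of all members, 22.8% of all sequences and 25.2% of those with other names. Both miR397 members reached the minimum level through DTT alone. The control sum was 5.09 normalized reads for tae-MIR397-p5 and 3.39 for tae-miR397-5p, against DTT sums of 72.7 and 34.3. With control sums so low, the minimum left little room for any other call. The list's median log2 ratio was 3.10, beside 0.03 for all members. The list was put together with these results known, so its count is a description.

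ata-miR398f-5p_L+1R-1, from the 5′ arm opposite the usual miR398 strand, was at 95.1 and 278 normalized reads in the DTT pools, against 12.6 and 8.49 in the control pools. Both DTT pools stood far above both control pools, with 91 and 386 implied reads against 8 and 5. The log2 ratio was 4.08, between 3.12 without DTT pool 2 and 4.66 without DTT pool 1. tae-miR398 itself was at 78.4 (pool 1) and 148 (pool 2) with DTT, against 14.1 and 20.4 normalized reads in control. Here too the DTT pools lay above the control pools, with a log2 ratio of 2.68, single-pool log2 ratios from 1.89 to 3.30 and a counting interval of 4.20- to 10.8-fold. ata-miR528-5p was at 73.1 (pool 1) and 204 (pool 2) with DTT, against 17.3 and 11.9 in control. Both DTT pools lay above both control pools, with a log2 ratio of 3.20 and a counting interval of 5.92- to 16.2-fold. The log2 ratio was 2.29 without DTT pool 2 and 3.76 without DTT pool 1. The 3 precursors lie on different scaffolds, which are 250736 of 3DL (minus strand, 53953 to 54046) for ata-miR398f-5p_L+1R-1, 220641 of 3B (plus strand, 245824 to 245943) for tae-miR398 and 321146 of 4BL (minus strand, 56029 to 56134) for ata-miR528-5p, all of the TGACv1 wheat assembly. Gene annotation around the precursors was not used here.

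The miR397 precursor is the 1 hairpin with both arms at least 2-fold higher. Its place is 26213 to 26305 on the plus strand of scaffold 486753, chromosome arm 6AS. tae-MIR397-p5, from its 5′ arm, was at 23.0 and 49.7 normalized reads in the DTT pools, against 0 listed and 5.09 in the control pools. The DTT pools stand for 22 and 69 implied reads and control pool 2 for 3, so the ratio of 14.3 has a counting interval of 4.73 to 70.5. tae-miR397-5p, which the table places on the 3′ arm in spite of its name, was at 8.36 and 25.9 in the DTT pools, against 0 listed and 3.39 in the control pools. Its ratio of 10.1, on 2 control reads, has an interval of 2.64 to 86.0. Both entries had their DTT pools above their control pools. The log2 ratio of tae-MIR397-p5 was 3.60, and 2.72 without control pool 1. That of tae-miR397-5p was 3.01, and 2.01 without DTT pool 2. Without control pool 2, control is listed at 0 for both. The sequence tae-MIR397-p5 shares a run of 18 bases (4 to 21) with the registered rice form osa-miR397a, tcattgagtgcagcgttgatg, which was itself at 8.36 and 2.88 in the DTT pools, against 3.14 and 13.6 in the control pools.

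tae-miR408_L-1 was at 248 and 238 normalized reads in the DTT pools, against 115 and 193 in the control pools. Both DTT pools lay above the control pools, but the log2 ratio of 0.65 did not reach 2-fold, with single-pool log2 ratios from 0.30 to 1.11.

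The miR9653 family, a young wheat family whose targets are not described here, had 2 of its 4 members at least 2-fold higher. tae-MIR9653a-p5 was at 7.31 and 16.6 normalized reads in the DTT pools and listed at 0 in both control pools. These are 7 and 23 implied reads, and no ratio is given against a group listed at 0. tae-miR9653b_R+1 was at 11.5 and 28.8 in the DTT pools, against 3.14 and 3.39 in the control pools. Its DTT pools lay above its control pools, with a log2 ratio of 2.45, between 1.67 without DTT pool 2 and 2.96 without DTT pool 1. The opposite arms did not follow: tae-miR9653a-3p was at 44.9 and 136 in the DTT pools, against 51.8 and 62.8 in the control pools, a log2 ratio of 0.65 with overlapping pools, and tae-MIR9653b-p3_1ss20TC had a log2 ratio of 0.14 (this last pair was chosen after its values were seen).

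Of the regulators of NAC, HD-ZIP III, NF-YA and GRAS transcription factors, 2 of 19 members were at least 2-fold higher and 2 lower, with a median log2 ratio of -0.01. The higher ones are minor forms. ata-miR171b-3p_L+4_1ss16TC, a 25-base variant of a family that targets GRAS factors, was at 12.5 and 14.04 normalized reads in the DTT pools, against 0 listed and 3.39 in the control pools. All DTT values lay above the control values, and on 2 control reads the ratio of 7.83 has a counting interval of 2.00 to 67.4. Its log2 ratio was 2.65, and 1.82 without control pool 1. Without control pool 2, control is listed at 0. The main form of the family, tae-miR171a, was at 917 and 1035 in the DTT pools, against 1015 and 942 in the control pools, with overlapping pools.

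ata-miR164a-3p_L-1R+1, the passenger arm of a family that targets NAC factors, was at 7.31 and 18.0 normalized reads in the DTT pools, against 3.14 and 6.79 in the control pools. The pools did not overlap, but the log2 ratio of 1.27 was 0.52 without DTT pool 2 and 0.85 without control pool 1, under the limit. The main form tae-miR164 was at 5091 and 4485 in the DTT pools, against 4662 and 4341 in the control pools, with overlapping pools.

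All 8 members of the miR169 family had a log2 ratio below 0, as 63 of the 140 members did. The median was -0.70, and 2 of the 8 were at least 2-fold lower. Both DTT pools lay below both control pools for 5 of the 8. That held for 10.7% of all members, 18.4% of all sequences and 19.7% of those with other names. The count of 8 of 8 was the same under the 3 other scalings, but it was 6 of 8 without control pool 2 and 7 of 8 without DTT pool 1. This family was singled out after its values were seen. ata-miR169h-3p_L-1 was at 3.13 and 0 listed in the DTT pools, against 18.8 and 30.5 normalized reads in the control pools. That is 3 implied reads against 30, a ratio of 0.0635 with a counting interval of 0.0124 to 0.204. The log2 ratio was -3.61, and -2.79 without DTT pool 2. Without DTT pool 1, DTT is listed at 0.

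ata-miR169i-3p_1ss8TG was at 7.84 and 6.48 normalized reads in the DTT pools, against 11.8 and 28.8 in the control pools. The pools did not overlap, and the log2 ratio of -1.44 was -0.68 without control pool 2. The other strand of that precursor (scaffold 433366 of 5DL, minus strand, 5040 to 5166), ata-miR169i-5p, was at 96.1 and 82.1 in the DTT pools, against 113 and 180 in the control pools, a log2 ratio of -0.71. ata-miR169e-5p, whose sequence differs from it by C1T, G20T and A21G (base of ata-miR169e-5p first, counted from its 5′ end), was at 301 and 217 in the DTT pools, against 401 and 390 in the control pools, a log2 ratio of -0.61. In both, each DTT pool lay below each control pool. ata-miR169c-3p_1ss7CT was at 17.8 and 18.7 in the DTT pools, against 36.1 and 33.9 in the control pools, with no overlap and a log2 ratio of -0.92 (these 3 were chosen after their values were seen).

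Among the miRNAs of the SPL and phase change list, which time the passage from juvenile to adult growth and flowering, 0 of 9 members were at least 2-fold higher and 1 was lower, with a median log2 ratio of -0.52. The 1 is from miR172, which targets AP2-like factors. ata-miR172c-5p_R-3 was at 11.5 and 7.20 normalized reads in the DTT pools, against 18.8 and 62.8 in the control pools. Both DTT pools lay below, and the log2 ratio of -2.07 was -0.97 without control pool 2. The guide strand of the same precursor (scaffold 249223 of 3DL, plus strand, 73377 to 73570), ata-miR172c-3p, was at 844 and 875 in the DTT pools, against 1318 and 1148 in the control pools, a log2 ratio of -0.52. Its pools did not overlap either. The much more abundant ata-miR172b-3p, which differs from it by A1G (base of ata-miR172b-3p first), was at 15475 and 23962 in the DTT pools, against 24853 and 15397 in the control pools, with a log2 ratio of -0.03. Its pools overlapped, and scaling to equal totals left only 3 of the 4 members of the family below 0. Of miR156, which targets SPL factors, ata-miR156a-5p was at 1646 and 1061 in the DTT pools, against 1486 and 1864 in the control pools, a log2 ratio of -0.31 with overlapping pools.

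tae-miR5200, which in the grass Brachypodium targets FT genes of flowering, is the 1 member of the grass MADS and FT list past the minimum level. It was at 26.1 (pool 1) and 70.6 (pool 2) normalized reads with DTT, against 98.9 and 210.4 in control, or 25 and 98 implied reads against 63 and 124. Both DTT pools lay below both control pools, and the log2 ratio of -1.67 stands for a ratio with a counting interval of 0.247 to 0.394. The log2 ratio was -1.03 without control pool 2 and -2.54 without DTT pool 2.

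ata-miR5168-5p and ata-miR5168-3p come from 1 precursor on scaffold 433043 of 5DL (plus strand, 95275 to 95398) and differed in ratio. The 5′ strand was at 3.13 and 2.16 normalized reads in the DTT pools, against 9.42 and 8.49 in the control pools, 3 and 3 implied reads against 6 and 5. Its DTT pools lay below its control pools, with a log2 ratio of -1.59 and a counting interval of 0.0898- to 0.872-fold. The 3′ strand, which differs from ata-miR166a-3p by T16A and C21T (base of ata-miR166a-3p first), was at 337 and 1187 in the DTT pools, against 522 and 776 in the control pools, with overlapping pools and a log2 ratio of 0.23 (the 3′ strand was chosen after its values were seen). tae-MIR9661-p3, of a young wheat family, was at 5.22 and 9.36 in the DTT pools, against 14.1 and 18.7 in the control pools. Its log2 ratio of -1.12 was -0.78 without DTT pool 1 and -0.91 without control pool 2.

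**Figure D5:**
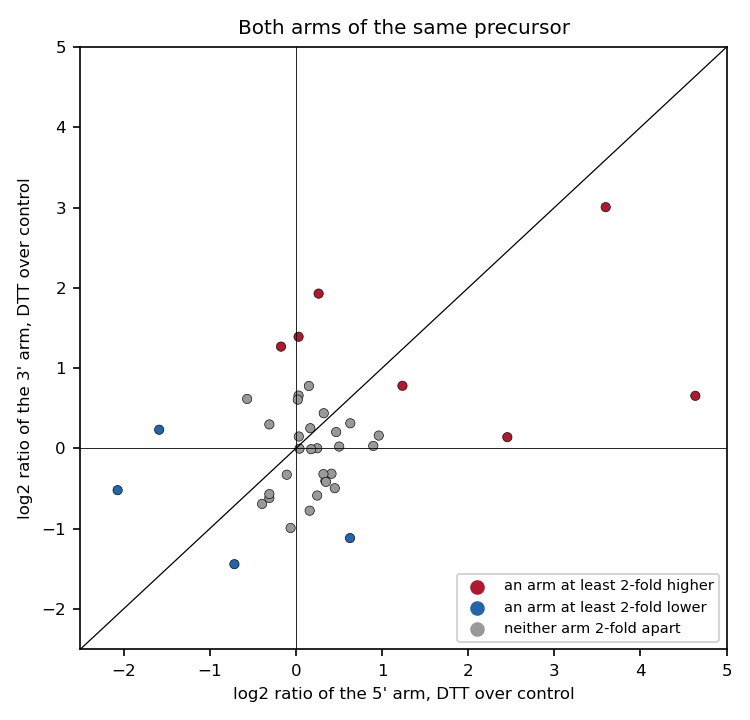
Log2 ratio of DTT over control of the 5′ arm (horizontal) and the 3′ arm (vertical) for 39 pairs of members from 1 precursor, with red for a pair with an arm at least 2-fold higher, blue for one with an arm at least 2-fold lower, and the line of equal ratios. The miR397 pair, at 3.60 and 3.01, is the one with both arms past the limit.

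The strands of 1 hairpin often differed in ratio. In 39 pairs of members listed on opposite arms of the same precursor, the log2 ratios had the same sign in 25. The listed arms are in doubt for tae-MIR5048-p5_1ss18TG_1 and tae-miR5048-5p_L-1_1ss12TG, a pair of the same sign whose sequences overlap. In 1 pair both arms were at least 2-fold higher, in 10 pairs only 1 arm was past the limit, and in 0 pairs the arms were past it in opposite directions. In 9 pairs the arms lay at least 1 apart on the log2 scale. In each of these 9, at least 1 arm had a DTT sum or a control sum under 20 normalized reads, where a few reads decide the ratio. Some members stand in several pairs, since a mature sequence such as ata-miR156a-5p has several precursors.

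The repeat-derived families, whose sequences match transposable elements of grasses, had 5 of 15 members at least 2-fold higher and 1 lower. The share higher was 12.1% of all members and 16.8% of the 958 sequences of any name. In 0 of the 15 did the DTT pools lie apart from the control pools. All 5 higher members had control sums under 20, from 4.19 to 13.1 normalized reads. For tae-MIR1122a-p5, tae-MIR1120c-p5_1ss20AG and tae-MIR1117-p5_1ss8GC the DTT sum was under 20 as well. tae-miR1122b-3p_1ss11GT was at 0 listed and 20.9 normalized reads in the DTT pools, against 3.14 and 3.39 in the control pools. tae-MIR1137a-p3_1ss8CT was at 3.13 and 32.8 in the DTT pools, against 6.28 and 6.79 in the control pools. In both, DTT pool 2 was above and DTT pool 1 below the control pools. Their log2 ratios of 1.54 and 1.39 were 2.50 and 2.24 without DTT pool 1. With log2 values averaged over the pools of each treatment, the ratios were 0.13 and 0.65, inside the limit. Without DTT pool 2 both fell under the minimum level. tae-MIR1122a-p5 was at 0 listed and 16.2 in the DTT pools, against 4.19 and 0 listed in the control pools, and tae-MIR1120c-p5_1ss20AG at 2.09 and 14.4, against 0 listed and 5.09. The log2 ratio of tae-MIR1122a-p5 was 1.73, 0.88 without control pool 2 and 0.86 with log2 values averaged over the pools of each treatment. That of tae-MIR1120c-p5_1ss20AG was 1.52, and 0.65 without control pool 1. tae-MIR1117-p5_1ss8GC, the fifth, named after its values were seen, was listed at 0 in pool 1 of both treatments, and stood at 16.6 in DTT pool 2, against 6.79 in control pool 2. The lower member, tae-MIR1134-p5_1ss13TG, was at 0 listed and 7.20 in the DTT pools, against 10.99 and 6.79 in the control pools, and its log2 ratio of -1.20 was -0.29 without DTT pool 1.

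Of the auxin list, with miR160 and miR167 that target auxin response factors and miR393 that targets auxin receptors, 1 of 11 members was at least 2-fold higher and 0 lower, with a median log2 ratio of 0.15. It was the passenger ata-miR167b-3p, at 4.18 and 18.0 normalized reads in the DTT pools, against 0 listed and 5.09 in the control pools. DTT pool 1 lay under control pool 2, and the ratio of 4.36, on 3 control reads, has a counting interval of 1.35 to 22.3. The log2 ratio of 1.93 was 1.05 without control pool 1. The other strand of that precursor, ata-miR167b-5p, had a log2 ratio of 0.26 with overlapping pools (named after its values were seen). The guide ata-miR167a-5p, which comes from other precursors, was at 34106 and 18315 in the DTT pools, against 20029 and 18306 in the control pools. Only DTT pool 1 stood out among these 4 values. tae-miR160 was at 12655 and 8845 in the DTT pools, against 9634 and 9743 in the control pools, with overlapping pools.

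Over the summed pools, the 10 most abundant members were inside the 2-fold limit. With 1 pool left out, tae-miR9774_L+2 passed it in both directions, at 2.37 without control pool 2 and -1.33 without DTT pool 2 on the log2 scale, and tae-miR7757-5p_1ss2TC was at 1.01 without control pool 2. ata-miR396e-5p and ata-miR396c-5p, from the family that restrains growth-regulating factors, differ by G21T (base of ata-miR396e-5p first). ata-miR396e-5p was at 161547 and 126450 normalized reads in the DTT pools, against 199626 and 146823 in the control pools, a log2 ratio of -0.27. ata-miR396c-5p was at 47049 and 24373 in the DTT pools, against 29829 and 25467 in the control pools, a log2 ratio of 0.37. Both had overlapping pools, and 0 of the 5 members of that list were 2-fold apart. ata-miR166a-3p, which targets HD-ZIP III factors, was at 34797 and 19335 in the DTT pools, against 25131 and 20344 in the control pools, with overlapping pools.

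tae-miR319, which targets TCP factors of leaf growth, was at 14270 and 18004 normalized reads in the DTT pools, against 31439 and 19831 in the control pools. Both DTT pools lay below both control pools, most of all below control pool 1, and the log2 ratio was -0.67. The related tae-miR159a_R-1, which targets GAMYB factors, was at 1427 and 1271 in the DTT pools, against 1507 and 1851 in the control pools, also without overlap, with a log2 ratio of -0.32. ata-miR394-5p, which targets an F-box gene of leaf and meristem growth, was at 9172 and 7881 in the DTT pools, against 13860 and 10778 in the control pools, with a log2 ratio of -0.53 and no overlap. These 3 were lower in every DTT pool than in every control pool, with summed ratios inside the 2-fold limit.

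The remaining lists were small or level. Silencing machinery had 2 members, the strands of miR168, which targets ARGONAUTE1: ata-miR168-5p was at 55.0 and 146 normalized reads in the DTT pools, against 73.8 and 122 in the control pools, and ata-miR168-3p had a log2 ratio of 0.15. Sulphate and phosphate had 1, tae-miR395a_L-1, at 3.13 and 8.64 in the DTT pools, against 3.14 and 8.49 in the control pools. The phasiRNA trigger list had 0 members past the minimum level. The young wheat-lineage list had 3 of 62 members higher and 2 lower, with a median log2 ratio of 0.14. It was matched on family numbers, so it also holds miR5168, whose 3′ strand shares its seed with ata-miR166a-3p. One of the lower members, ata-miR5168-5p, is from that precursor. The most abundant member of the list, tae-miR9774_L+2, was at 1877 and 14292 in the DTT pools, against 1568 and 7849 in the control pools. These values differed by pool number more than by treatment, while in DTT+TUDCA pool 1 was the higher, at 20800 against 1302. The 17 higher members are completed by a pair named after their values were seen. tae-MIR9774-p5 was at 77.3 and 160 in the DTT pools, against 21.97 and 78.1 in the control pools, a log2 ratio of 1.24. tae-MIR530-p5 was at 24.03 and 67.0 in the DTT pools, against 25.1 and 18.7 in the control pools, a log2 ratio of 1.04. In both, DTT pool 1 lay between the control pools.

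The rule used names and levels only, so other features could be set beside the calls. The calls also differed in level, with a median sum of 37.7 normalized reads in the higher members, 52.5 in the lower ones and 296 in the others. The features below were not separated from level. A first T, common in plant miRNAs, was found in 6 of the 17 higher members and 2 of the 7 lower ones, against 80 of the 116 others. Of the 17 higher members 11 had 21 bases, as did 3 of the 7 lower ones and 74 of the 116 others, and 2 of the 7 lower ones had 19 bases, both from the 3′ arm of miR169. The registered mature form accounted for 4 of the 17 higher, 2 of the 7 lower and 38 of the 116 other members. The median share of G and C was 52% in the higher members and 47.6% in the lower members and the others. Precursor positions on D chromosomes alone were given for 46 of the 51 ata- named members and for 28 of the 89 tae- named ones. Of the members placed on D chromosomes alone, 6 of 74 were higher and 4 lower, against 5 higher and 2 lower of 24 on A and 4 higher and 1 lower of 25 on B chromosomes.

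The DTT+TUDCA leaves were set against the same control pools, so only their values are given. ata-miR398f-5p_L+1R-1 was at 1369 and 105 normalized reads in the DTT+TUDCA pools, tae-MIR397-p5 at 372 and 22.2, and tae-miR5200 at 178 and 14.4. Pool 1 was the higher of the DTT+TUDCA pools in all 3.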

How the data were processed

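Per the labels' protocols, Trizol-extracted RNA of wheat leaves went into TruSeq small RNA libraries, which were sequenced from one end for 50 bases (Illumina). The authors deposited 1 table of signal values, marked as normalized reads per the file headers. For the aligner, counter, filters and normalization rule no source used here names a tool or release. From it, 1 row was kept per distinct sequence, entries with a tae- or ata- name were taken, and those with a sum of at least 20 normalized reads over the DTT and control pools were compared. The log2 ratio is that of the summed DTT pools plus 1 to the summed control pools plus 1, and the limit was 2-fold. With 1 sample per treatment, read as 2 pools, no p-value was computed.

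Implied reads came from the step between values: the most common value of a pool was divided by the smallest whole number that made at least 90% of its values whole within 0.01 reads. The 95% counting intervals are exact (Clopper-Pearson on implied reads, no added 1) and cover counting error only. Named entries were the 10 highest and 10 lowest ratios with pools that do not overlap, 5 and 5 with pools that do, the 10 most abundant, and up to 3 most abundant of each of 12 lists. Others named were chosen after their values were seen. Members and lists were chosen with earlier results of these data known. The 3 scalings, 2 floors, pseudocount, fold limit, pool, duplicate and name alternatives are given at the end. Python 3.11.15, numpy 2.4.6, scipy 1.17.1 and pandas 2.3.3 were used. The ratio step was tested on simulated pools that differed within a treatment by counting error only. That test does not cover the larger differences between pools described above.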

Additional observations from a re-analysis of the deposited data

How the results depend on the processing

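With another scaling, a pseudocount of 5, the mean of log2 values, all rows, or merged values, the counts of wheat and Aegilops entries past the limit stayed within 1.5 times of those reported. Floors, limits and subsets moved the counts. The share of members past the limit also rose without a floor, which takes in entries of low level, and fell with the floor of 100. The 1.5-fold limit kept the same 140 entries. Without a floor, 68 of 234 were higher and 22 lower (19 and 13 with pools that do not overlap), and 30.4% and 15.01% of the entries with other names (17.6% and 11.1% as reported). With a floor of 100, 5 of 86 were higher and 2 lower (3 and 2 without overlap), and 20% and 4.85% of those with other names. At a 1.5-fold limit, 30 were higher and 24 lower (11 lower without overlap), and 29.1% and 21.03% of those with other names. Registered forms alone gave 4 and 2 of 44 (3 and 2 without overlap), and 11.3% and 5.67% of those with other names. With tae- names alone 3 were lower, and 5 higher and 2 lower did not overlap.

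Leaving out 1 pool, with the remaining pool counted for both, left between 124 and 151 members. Between 7 and 44 of them were higher and between 5 and 49 lower, with medians from -0.78 to 0.64. Without overlap, between 7 and 37 were higher and between 5 and 39 lower. Of those with other names, between 19.1% and 24.7% were higher and between 11.6% and 18.4% lower. With 1 pool left out, the median over all entries moved by -0.17 to 0.15. In single pools, a choice made after seeing the data, 6 were higher with DTT pool 1 against control pool 1. Against control pool 2, DTT pool 1 had 4 higher, 61 lower and a median of -1.13. Against control pool 1, DTT pool 2 had 70 higher, 1 lower and a median of 1.13. In these pairs, in the same order, 23.6%, 39.2% and 35.9% of the entries with other names were at least 2-fold apart. The cause was not tested. Of the 21 named entries past the limit, 10 stayed past it whichever pool was left out, and 7 fell under the floor without some pool, so that no value was given. No named entry past the limit changed sign in the settings that gave it a value, but 6 of the 21 had the opposite sign in at least 1 of the 4 single-pool ratios, where no minimum was set. No paired analysis was possible because each treatment is 1 sample, so that no test with the pool number as a block can be made. As a value with no test, the mean log2 value of the DTT pools less that of the control pools gave 14 higher and 8 lower. This value is the same however the pools are matched, so it takes no account of the pool number. Depth limits the entries with a sum under 50, where control values rest on a few reads.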
